A study of Caenorhabditis elegans with 7 samples.

Results

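The lysozyme genes described here are 10 genes of the nematode Caenorhabditis elegans, 3 of the invertebrate-type family (ilys-2, ilys-3 and ilys-5) and 7 of the lys family (lys-1, lys-2, lys-4, lys-5, lys-6, lys-7 and lys-8), out of 44968 features counted. They were listed by symbol, with the levels and the comparison of these libraries already known, so their differences between the groups are given as a description. Of the 10 genes 6 stand in the comparison table that the authors deposited, and lys-5, lys-6, ilys-2 and ilys-3 do not. That table kept genes above 1 CPM (counts scaled to a common library total) in 3 libraries. The nearest listed gene inside this limit was lys-7 at a mean of 4.58 CPM, and the nearest outside it was lys-5 at 0.786 CPM. Counts were high enough to test 8 of the 10 genes, lys-5 and lys-6 included. The annotation names 6 further lysozyme genes, lys-3, lys-9, lys-10, ilys-1, ilys-4 and ilys-6, which are used for comparison.

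mRNA was sequenced without strand information from whole, unfed L1 larvae of the wild-type strain N2, and the groups differed in what the parents had eaten. Parents of the first group fed ad libitum (AL, 3 libraries, A to C) on the bacterium HB101 at 25 mg per mL, and those of the second were under dietary restriction (DR, 4 libraries, A to D) at 3.1. The deposited notes give mg per mL for the DR amount too, where the labels have ml. In both groups the stocks came from 20 °C cultures fed on OP50 bacteria, the parents spent 96 hr in liquid culture, and the embryos released by bleach hatched in buffer without food, from which larvae were frozen 24 hr later. The submitters call the libraries biological replicates, and nothing further says how separate the cultures were.

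Lysozymes are secreted or lysosomal enzymes that break the peptidoglycan of bacterial cell walls. In C. elegans, which eats bacteria, they are produced largely by the intestine and serve both the digestion of food and the defence against pathogens. Several lys genes are known to be switched on by infection, under the control of the p38 MAP kinase cascade, the DBL-1 pathway or the transcription factors DAF-16 and HLH-30.

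Feature totals ran from 16626117 to 22952310 counts per library. A count of 0 in a library allows a level of up to 0.130 to 0.192 CPM (3 counts; counting error only). Features of rRNA took 8.02% to 12.6% of the counts in AL libraries and 11.7% to 23.8% in DR libraries, with DR D highest. The names of the deposited files carry the prefix BB1 for AL A, DR A, DR B and DR C and the prefix BB2 for AL B, AL C and DR D, and differences are also given within each prefix, where 1 library stands for a whole group.

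The largest difference among the lysozyme genes tested was that of ilys-5, which stood at 17.4 ± 8.17 CPM (SD, n = 3) in AL progeny and 76.6 ± 27.4 CPM (SD, n = 4) in DR progeny, 4.41-fold higher. The most abundant lysozyme transcripts, lys-8 and lys-1, lay at like levels in both groups. The neighbouring genes lys-4, lys-5 and lys-6 each had a higher mean in DR progeny. Within groups, the libraries of lys-4 spread more than those of most genes of like level, and those of lys-5 and lys-6 did not. None of the 8 genes tested passed edgeR's quasi-likelihood test at an adjusted p of 0.05, in either direction. Over all 14867 genes tested 0.0135% passed, and nothing is read from the members' count because the contrast was known when they were listed. At an unadjusted p under 0.05 there were 2 of the 8 genes, ilys-5 and lys-5, where 10.7% of all genes tested had such a p. The low-count gene lys-5 passed the filter mainly through its DR libraries, so nothing is read from this count either. DESeq2 called 1 lysozyme gene (0.536% of all genes it tested), the edgeR exact test called 1 (0.161%) and limma-voom called 0. The gene was ilys-5 both times. DESeq2 gave no adjusted p for lys-5, lys-6 and lys-7, so it could not call them.

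**Figure D1:**
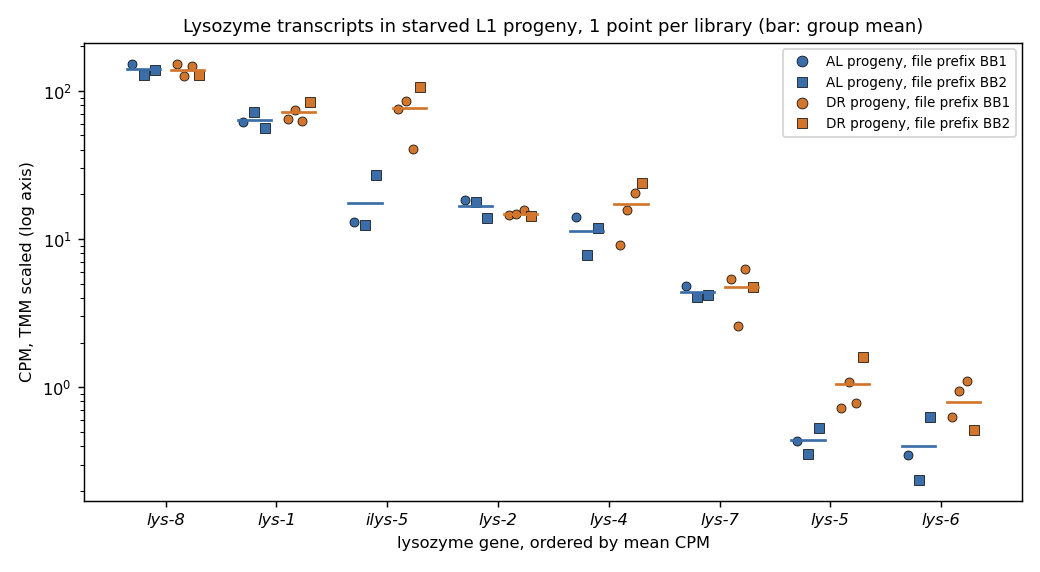
Each point is the TMM-scaled CPM of a lysozyme gene in 1 library, on a log axis; colours give the parental diet, circles and squares the file-name prefix, and bars the group means. For ilys-5 all 4 DR libraries (40.3 to 106 CPM) lie above all 3 AL libraries (12.4 to 26.8 CPM), while lys-8 and lys-1 overlap.

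Levels of different genes can be compared only per length, here as CPM per kb of exon. On this scale lys-8 stood first at a mean of 143 over all 7 libraries (lowest 130, highest 158). It was followed by lys-1 at 70.9, ilys-5 at 39.9, ilys-4 at 35.2, lys-4 at 18.7, lys-2 at 16.8, lys-3 at 7.86 and lys-7 at 5.08. Below these came lys-5 at 1.12 and lys-6 at 0.885 CPM per kb. Between lys-8 and lys-1, between lys-2 and lys-3, and between lys-7 and lys-5 the library ranges did not overlap, and all other neighbours in this order overlapped. In AL progeny ilys-5 was the sixth gene in order at 13.6 CPM per kb, behind lys-8, lys-1, ilys-4, lys-2 and lys-4. In DR progeny it was the third at 59.7 CPM per kb, behind lys-8 and lys-1.

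The gene ilys-5 (F22A3.6) encodes a lysozyme of the invertebrate type, whose members in other animals attack bacterial cell walls. It had 300, 210 and 559 reads in AL A, B and C, and 1554, 1882, 773 and 1660 reads in DR A, B, C and D. As CPM these were 12.97, 12.4 and 26.8 in AL and 75.2, 85.0, 40.3 and 106 in DR progeny. AL C was the highest AL library and DR C the lowest DR library, and the groups did not overlap: DR C still lay 1.503-fold above AL C. Over all genes tested the DR libraries lay wholly above the AL libraries for 5.97%. Within groups the highest library exceeded the lowest 2.16-fold for AL and 2.63-fold for DR progeny.

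The fitted log2 fold change of ilys-5 was 2.13 ± 0.45 (SE), with an adjusted p of 0.372 in edgeR's quasi-likelihood test. By p it came 143rd among the genes tested. By the size of its fold change it came first among the 7888 genes tested with a mean above 10 CPM. Over all genes tested, 14 had a log2 fold change at least as far from 0, ilys-5 included. These ranks use values known when the gene was listed and support nothing. Within prefix BB1 the log2 fold change was 2.37 (AL A against DR A, B and C), and within prefix BB2 it was 2.43 (AL B and C against DR D). Each of these values rests on 1 library of a group. With each library left out in turn the log2 fold change stayed between 1.94 and 2.59. The groups did not overlap, so a value above 0 was fixed in advance in these subsets and supports nothing. In whole larvae, more cells that express a gene and more RNA per cell cannot be told apart.

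Whether ilys-5 passed depended on the test. The edgeR exact test gave an adjusted p of 8.33e-06 and DESeq2 gave 0.00195, both at a log2 fold change of 2.14. In the authors' deposited table, made with the exact test, ilys-5 had a log2 fold change of 2.14 with an FDR of 2.03e-08 and was the second gene by p, where 0.283% of that table's genes had an FDR under 0.05. limma-voom gave an adjusted p of 0.302, and the quasi-likelihood fit without robust estimation gave 0.280. In log2 CPM, ilys-5 had an SD of 0.607 within groups. The median was 0.136 over the 200 genes nearest in mean level, and 99.5% of these genes had a smaller SD. The robust quasi-likelihood fit gave ilys-5 0.782 prior degrees of freedom, against 6.88 for most genes.

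**Figure D2:**
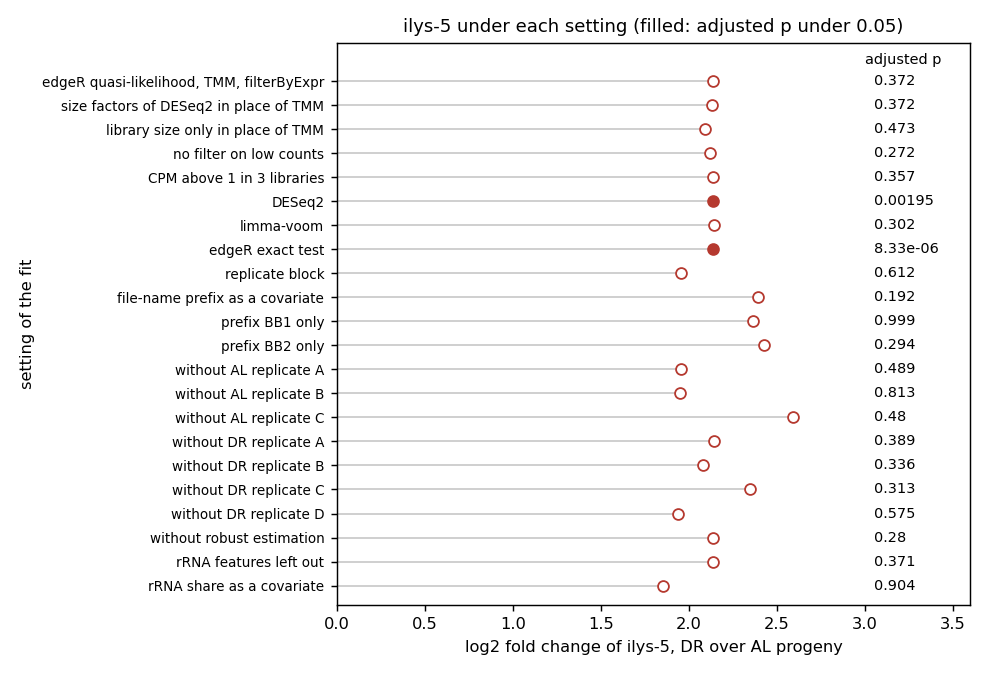
Each point is the log2 fold change of ilys-5 (DR over AL) under 1 setting of the fit, with its adjusted p printed at the right; filled points have an adjusted p under 0.05. Every value lies between 1.85 and 2.43 apart from the fit without AL C at 2.59, and only DESeq2 and the edgeR exact test give filled points.

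Other measures also varied between the libraries. DR D had both the highest ilys-5 level and the largest rRNA share (23.8%). From AL A through AL C, DR C and DR A to DR D, the rRNA share and the ilys-5 level rose together. AL B and DR B lay outside that order. AL B had the largest AL share (12.6%) and the lowest ilys-5 level (12.4 CPM). DR B had the smallest DR share (11.7%) and 85.0 CPM of ilys-5. A fit with the rRNA share as a covariate gave a log2 fold change of 1.85 for ilys-5 (adjusted p = 0.904, edgeR). Without the rRNA features it was 2.13. The summed level of the intestine markers (9 of 10 found in the files, none at 0) was lower in DR libraries. It ran from 2842 to 3013 CPM in AL and from 2206 to 2624 CPM in DR libraries, without overlap. The intermediate filament gene ifb-2 made up most of this sum, with an AL mean of 1625 CPM and a DR mean of 1330 CPM. Singly, ifb-2 and cpr-6 lay wholly lower in DR libraries, as did 5.88% of all genes tested. Of the 9 markers 6 had a log2 fold change below 0, as did 7196 of all 14867 genes tested. Values above 0 were those of elt-2 (0.16), pho-1 (0.15) and elt-7 (0.00). The part of the rRNA share and of the intestine in the ilys-5 difference was not tested.

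Summed over the 10 lysozyme genes, AL libraries held 264, 243 and 253 CPM and DR libraries 323, 320.5, 294 and 363 CPM. The DR libraries were higher, without overlap, by 71.8 CPM on average, and ilys-5 made up 59.2 CPM of that difference. Its share of the reads of the 10 genes was 4.91%, 5.09% and 10.6% in AL A, B and C. In DR A, B, C and D it was 23.3%, 26.5%, 13.7% and 29.2%. Without ilys-5 the sums were 226 to 251 CPM in AL and 235.5 to 257 CPM in DR libraries and overlapped.

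**Figure D3:**
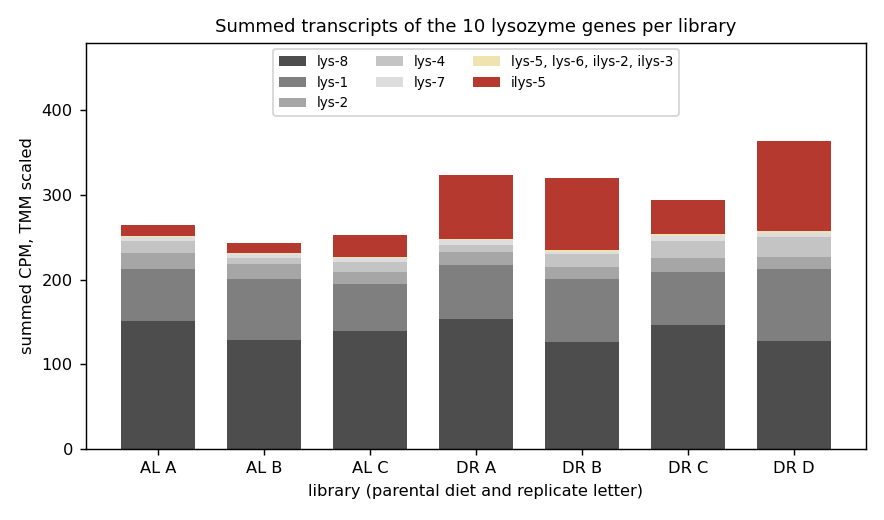
Bars give the summed TMM-scaled CPM of the 10 lysozyme genes in each library, stacked by gene. The red ilys-5 segment is 12.4 to 26.8 CPM in AL and 40.3 to 106 CPM in DR libraries, and the grey segments below it reach like heights in both groups.

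The genes lys-4, lys-5 and lys-6 lie next to each other on the chromosome with no other protein-coding gene between them. Their transcripts differed far in level: lys-4 stood 16.6-fold above lys-5 and 21.1-fold above lys-6 in CPM per kb. The level of lys-4 (F58B3.1) was 14.2, 7.79 and 11.9 CPM in AL A, B and C, and 9.15, 15.7, 20.4 and 23.8 CPM in DR A, B, C and D. AL A lay above DR A and the groups overlapped. The log2 fold change was 0.60 ± 0.35 (SE, adjusted p = 0.574, edgeR). Within prefix BB1 it was 0.09. Within BB2, against the single DR library D, it was 1.27, with an adjusted p of 0.0196 (edgeR) that rests on that library and assumes that it varies like the others; 4.88% of all genes passed there. Its SD within groups of 0.543 in log2 CPM exceeded that of 99.5% of the 200 genes nearest in level (median 0.170).

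Known from infection with Staphylococcus aureus as a gene that HLH-30 induces, lys-5 (F58B3.2) had 10, 6 and 11 reads in AL and 15, 24, 15 and 25 reads in DR libraries. As CPM these were 0.432, 0.354 and 0.528 in AL and 0.726, 1.08, 0.783 and 1.597 in DR libraries, which did not overlap. The log2 fold change was 1.22 ± 0.40 (SE, adjusted p = 0.376, edgeR), with 0.99 within BB1 and 1.83 within BB2. The third gene of the row, lys-6 (F58B3.3), had 8, 4 and 13 reads in AL and 13, 21, 21 and 8 reads in DR libraries. Its groups overlapped, since DR D (0.511 CPM) lay below AL C (0.624 CPM). Its log2 fold change was 0.97 ± 0.45 (SE, adjusted p = 0.470, edgeR), with 1.35 within BB1 and 0.21 within BB2. The filter on low counts asked for at least 0.496 CPM in 3 libraries. For lys-5 all 4 DR libraries and 1 AL library reached that level, and for lys-6 it was 3 and 1. These genes thus passed mainly through the group in which they were higher, and their place among the genes tested supports nothing.

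Another row of neighbours holds lys-1, lys-2 and lys-3. No file lists a read as matching several places, and how such reads were handled is not given in the sources used here, so reads shared by related neighbours cannot be told apart. Known as an intestinal gene induced by Serratia marcescens, lys-1 (Y22F5A.4) stood at 62.1, 71.5 and 56.2 CPM in AL and at 64.6, 74.3, 62.7 and 84.7 CPM in DR libraries. The groups overlapped, with DR D highest, and the log2 fold change was 0.18 ± 0.12 (SE, adjusted p = 0.621, edgeR; 0.11 and 0.41 within the prefixes). The level of lys-2 (Y22F5A.5) was 18.4, 17.8 and 13.9 CPM in AL and 14.5, 14.6, 15.8 and 14.2 CPM in DR libraries. AL C lay below every DR library, and AL A and B above them. The log2 fold change was −0.17 ± 0.12 (SE, adjusted p = 0.620, edgeR; −0.29 and −0.15 within the prefixes). Together with lys-8, lys-2 was one of the listed genes with a value below 0. The third neighbour, lys-3, is not among the 10 listed genes. It had 6.31, 11.9 and 10.9 CPM in AL and 10.99, 6.91, 6.26 and 8.43 CPM in DR libraries, with a log2 fold change of −0.25 ± 0.25 (SE) that was 0.35 within BB1 and −0.43 within BB2.

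The intestinal lysozyme genes lys-7 and lys-8 are known for roles in defence, lys-7 as a target of DAF-16 and lys-8 as a target of the DBL-1 pathway. The level of lys-8 (C17G10.5) was 151, 129 and 139 CPM in AL and 153, 126, 147 and 128 CPM in DR libraries. The highest library exceeded the lowest 1.21-fold, and the log2 fold change was −0.01 ± 0.10 (SE, adjusted p = 0.977, edgeR). The level of lys-7 (C02A12.4), per kb 28.2-fold below lys-8, was 4.84, 4.07 and 4.18 CPM in AL and 5.37, 2.57, 6.31 and 4.73 CPM in DR libraries. DR B was the lowest and DR C the highest of all 7 libraries, and the log2 fold change was 0.12 ± 0.26 (SE, adjusted p = 0.897, edgeR; −0.03 and 0.20 within the prefixes). Reads of lys-8 could overlap those of C17G10.13 on the opposite strand in 38 of 970 exon bases. The libraries were not strand-specific, so such reads cannot be told apart.

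**Figure D4:**
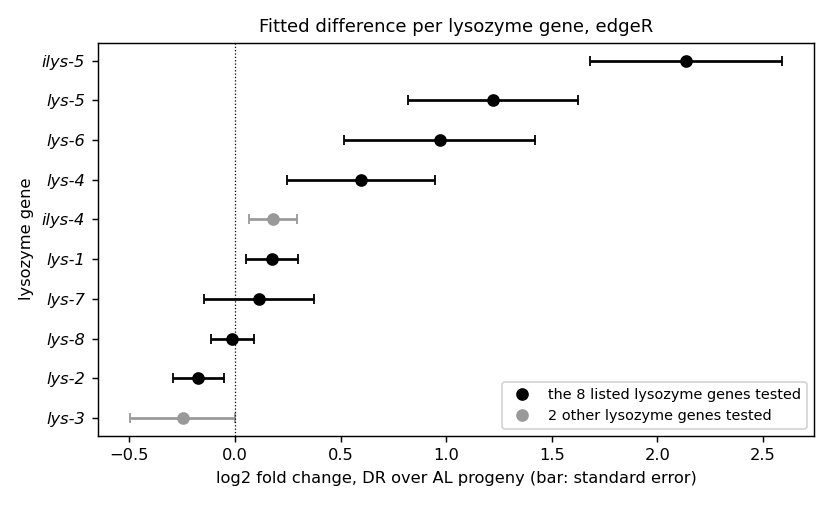
Points give the fitted log2 fold change of DR over AL progeny for the 10 lysozyme genes that could be tested, with bars for the standard error; black marks the listed genes and grey lys-3 and ilys-4. The value for ilys-5 (2.13) is the highest, followed by lys-5 (1.22), lys-6 (0.97) and lys-4 (0.60), and the other 6 lie between −0.25 and 0.18.

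The invertebrate-type genes ilys-2 and ilys-3 stand in a row with ilys-1 and were hardly detected. An enzyme active against Gram-positive bacteria in the pharynx and intestine, ILYS-3 is encoded by C45G7.3, which had 3, 6 and 2 reads in AL and 0, 4, 4 and 1 reads in DR libraries. For ilys-2 (C45G7.2), another gene induced through HLH-30 during infection, the counts were 0, 1 and 0 in AL and 2, 2, 0 and 1 in DR libraries. Most of these counts are at or below the 3 counts that a reading of 0 allows, and no fold is given. Among the lysozyme genes that were not listed, ilys-1 and lys-9 had no read in any library, and lys-10 had between 0 and 4 reads. The gene ilys-4 had 27.97, 22.1 and 27.5 CPM in AL and 25.8, 30.1, 31.8 and 29.6 CPM in DR libraries, with a log2 fold change of 0.18 ± 0.11 (SE, adjusted p = 0.579, edgeR). The gene ilys-6 had 20 reads in AL C, 27 in DR B, 1 in DR C and 0 in the other 4 libraries.

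Over the 6 listed genes above 1 CPM in 3 libraries the median log2 fold change was 0.15, with lys-2 and lys-8 below 0 and ilys-5, lys-1, lys-4 and lys-7 above it. It was 0.39 with lys-5 and lys-6, which passed the filter mainly through the DR group, and 0.37 with no filter over all 10 genes, beside 0.01 over all genes tested. These medians are a description and support nothing. The spread between libraries of a group differed among the listed genes. In lys-2 and lys-8 the SD of log2 CPM within groups was 0.149 and 0.130, near the medians of genes of like level (0.144 and 0.143). In lys-1 the SD was 0.190 against a median of 0.134, and 75.5% of the 200 nearest genes had less. In ilys-5, lys-4 and lys-7 it was 0.607, 0.543 and 0.435, where 99.5%, 99.5% and 92.0% of the 200 nearest genes had less. The low-count genes lys-5 and lys-6 had SDs of 0.395 and 0.496, below the medians of genes of like level (0.468 and 0.519).

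**Figure D5:**
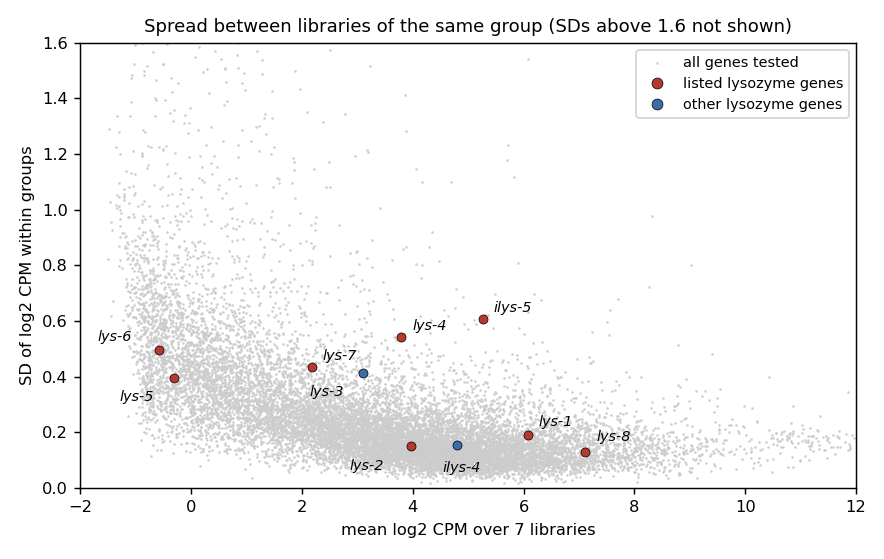
Each grey dot is a gene tested, placed by its mean log2 CPM over the 7 libraries and by the SD of its log2 CPM within groups; red marks the listed lysozyme genes and blue lys-3 and ilys-4. The SD of ilys-5 (0.607) and lys-4 (0.543) stands above the bulk of genes at their level, while lys-8 (0.130) and lys-2 (0.149) lie within it.

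Nearness in pattern was taken as the root mean square difference of centred log2 CPM over the 7 libraries. The genes nearest to ilys-5 were T09A12.1 (0.493) and the chemoreceptor genes str-4 (0.513) and sre-35 (0.549). All 3 were low, with DR means of 0.504, 1.39 and 0.700 CPM. The median difference from ilys-5 over all genes was 1.19. For lys-8 the nearest genes were the kinesin gene klp-15 (0.030), the ATP synthase subunit gene atp-1 (0.033) and erp-44.1 (0.037). For lys-1 they were K04C2.2 (0.041), Y53F4B.9 (0.044) and the nuclear pore gene npp-9 (0.046), and for lys-2 the alanyl-tRNA synthetase gene aars-2 (0.034), scav-1 (0.042) and F56G4.6 (0.043). Genes that vary little between libraries are near many others by this measure: 498 genes lay within 0.1 of lys-8, 191 of lys-2, 108 of lys-1 and 0 of ilys-5.

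Genes that are known to control lysozymes were measured here as mRNA only, and none showed a difference past the test. Over all genes tested 0.0135% passed, so counts of 0 in this and the following lists say little. For counts by direction, 7671 of all 14867 genes tested had a log2 fold change above 0 and 7196 below 0. Of the 8 regulators of intestinal immunity 0 passed edgeR's quasi-likelihood test, and 6 had a log2 fold change above 0 (median 0.01). An unadjusted p under 0.05 was found for 2 of the 8, where 10.7% of all genes tested had such a p. HLH-30, which induces ilys-2 and lys-5, and DAF-16, which acts on lys-7, are transcription factors of stress and starvation. For hlh-30 the AL mean was 565 ± 29.3 CPM and the DR mean 569 ± 38.2 CPM, a log2 fold change of 0.01. For daf-16 the means were 305 ± 16.7 and 308 ± 39.5 CPM, again at 0.01. The intestinal GATA factor genes elt-2 and elt-7 stood at log2 fold changes of 0.16 and 0.00, and the stress factor gene skn-1 at 0.12. The bZIP gene cebp-2 had 8.62 ± 0.16 and 12.0 ± 0.98 CPM, without overlap (0.48 ± 0.12, SE, adjusted p = 0.371, edgeR). Over all genes tested the DR libraries lay wholly above the AL libraries for 5.97% and wholly below for 5.88%. Lower in DR progeny, also without overlap, was zip-2, a bZIP gene of the response to Pseudomonas aeruginosa, at 347 ± 20.5 and 290.1 ± 14.1 CPM (−0.26, adjusted p = 0.378, edgeR), and pqm-1 had a log2 fold change of −0.30.

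In the p38 and ERK cascades, kinase relays that act in the response to pathogens, 9 of 10 genes had a log2 fold change below 0 and 0 passed (median −0.13; 1 unadjusted p under 0.05). The MAP kinase kinase kinase gene nsy-1 stood at 172 ± 10.5 CPM in AL libraries and at 136 ± 8.51 CPM in the DR libraries, without overlap (−0.34 ± 0.09, SE, adjusted p = 0.371, edgeR). Upstream of it tir-1 stood at −0.09, and downstream the kinase genes sek-1 and pmk-1 stood at −0.18 and −0.22 and the transcription factor gene atf-7 at −0.02. The phosphatase gene vhp-1, which restrains the cascade, stood at −0.11. With nsy-1, sek-1 and vhp-1 were the 3 genes of the 10 whose DR libraries lay wholly below the AL libraries. Over all genes tested this held for 5.88%. Of all 14867 genes tested 7196 had a value below 0, and 10.7% had an unadjusted p under 0.05. Of the ERK genes, ksr-1 stood at 0.04, lin-45 at −0.07, mek-2 at −0.17 and mpk-1 at −0.15. In the DBL-1 pathway, the TGF-beta relay upstream of lys-8, 4 of 9 genes lay above and 5 below 0 and 0 passed (median −0.004; 1 unadjusted p under 0.05). Its values ran from −0.22 for the receptor-associated gene sma-10 to 0.05 for the ligand gene dbl-1 and 0.14 for the glypican gene lon-2.

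Other antibacterial effectors lay on both sides of 0. Of 50 genes for saposin-like proteins and antimicrobial peptides 35 were tested, 0 passed and 5 had an unadjusted p under 0.05. Over all genes tested 10.7% had such a p. The log2 fold change was above 0 in 14 and below 0 in 21 of the 35 (median −0.12). The values ran from 0.96 for the caenacin gene cnc-3 (5.06 ± 1.05 and 9.91 ± 4.05 CPM) and 0.94 for spp-17 down to −0.84 for the defensin-like gene abf-2. In 3 of the 35 genes, abf-5, abf-6 and cnc-8, picked out here by that feature, the DR libraries lay wholly above the AL libraries (5.97% of all genes tested), and in 0 they lay wholly below (5.88%). Of 13 genes for digestive and lysosomal hydrolases 10 had a log2 fold change below 0 and 0 passed (median −0.21; 5 unadjusted p under 0.05). The cathepsin B-like genes cpr-4 (149.7 ± 44.5 and 239 ± 106 CPM) and cpr-5 had the highest values at 0.67 and 0.30, and the aspartic protease gene asp-1 the lowest at −0.52 (4653 ± 787 and 3241 ± 879 CPM). In 4 of the 13, cpr-6, asp-5, asp-6 and nuc-1, also picked out by that feature, DR libraries lay wholly below AL libraries, and in 0 they lay wholly above. In either direction 11.9% of all genes tested did not overlap.

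Markers of the other tissues of the larva could be set beside those of the intestine. Intestine markers had a median log2 fold change of −0.14 over 9 genes, pharynx markers 0.13 over 9, hypodermis markers −0.19 over 6, body wall muscle markers −0.13 over 5, neuron markers 0.06 over 7, coelomocyte markers 0.03 over 3 and germline markers −0.20 over 6, and 0 genes of these lists passed edgeR's quasi-likelihood test. At an unadjusted p under 0.05 there were 2 intestine, 3 pharynx and 1 body wall muscle genes and 0 in the other lists. Over all genes tested 10.7% had such a p. Summed pharynx markers overlapped between AL (2840 to 3648 CPM) and DR libraries (3214 to 3828 CPM). Summed body wall muscle markers did not, at 8904 to 9316 CPM in AL and 6429 to 8848 CPM in DR libraries. Most of this sum was unc-54, with an AL mean of 6308 CPM and a DR mean of 5172 CPM. It was the 1 muscle marker of the 5 tested without overlap. Of the 5, 4 had a log2 fold change below 0, and unc-27 stood at 0.12. Of the muscle markers hlh-1 was listed at 0 in every library. The other sums overlapped, at 188 to 219 CPM in AL and 185 to 226 CPM in DR libraries for hypodermis, 1923 to 2093 and 1987 to 2131 CPM for neurons, 24.0 to 29.6 and 26.96 to 29.7 CPM for coelomocytes, and 125 to 129 and 112 to 132 CPM for the germline.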

How the data were processed

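The submitters' processing notes name Bowtie 1.1.2 and HTSeq. Genome build and annotation release: not given in the sources used here. Coordinates are therefore left out. Raw counts per feature were deposited, and HTSeq's summary lines, 22.2% to 24.0% of reads, were set aside. The deposited workbook gives CPM by the authors and, per its notes, an edgeR exact test of genes above 1 CPM in 3 libraries, with the authors' log2 fold changes, p-values and adjusted p-values. Names, exon lengths and neighbours came from the Ensembl annotation of WBcel235.

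Tests were run on the counts by edgeR 4.0.16 under R 4.3.3 (filterByExpr, TMM, robust quasi-likelihood F-test, DR minus AL, two-sided, Benjamini-Hochberg over 14867 genes, threshold 0.05), with DESeq2 1.42.0 and limma 3.58.1 as alternatives. CPM are TMM scaled. Log2 CPM use a prior count of 2. The steps were tested on simulated data. With 3 and 4 libraries, p-values measure the spread between these libraries only.

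The lysozyme genes and the lists were chosen with earlier results of these data known. Named are all 16 lysozyme genes and every regulator and MAP kinase gene listed. Of each other list of effectors or pathway genes the 2 highest and the lowest are named. Also named are the 3 genes nearest in pattern to each of the 4 listed genes with the highest mean CPM, not scaled by length. Genes named because their groups do not overlap, and the tissue markers named, were chosen after their values were seen.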

Additional observations from a re-analysis of the deposited data

Results flagged for a closer look

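The CPM of ilys-6 in DR B, 1.22, stood far from the other DR libraries, which were at 0, 0.052 and 0 CPM. Of the 11 lysozyme genes looked at in this way this was the single one whose highest or lowest DR library lay that far out. Chance alone marks about 1 in 20 groups of normally distributed values. With DR libraries at 0 this rate need not hold for ilys-6. Among AL libraries, AL C stood at 0.960 CPM and the others at 0. AL C and DR B hold all but 1 of the 48 reads of the gene. Summed hypodermis markers were 208.5 and 226 CPM in these 2 libraries. They were 219 CPM in AL B, where ilys-6 had 0 reads, and 185 to 188 CPM in the other 4 libraries. Their part in the ilys-6 reads was not tested.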

How the results depend on the processing

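Over 21 alternatives the number of listed genes past the threshold stayed at 0 except for 1 with DESeq2 (ilys-5), 1 with the edgeR exact test (ilys-5) and 1 within prefix BB2 (lys-4, against DR D alone), and it was 0 with each library left out. The median log2 fold change of the listed genes, 0.39, was 0.15 with genes above 1 CPM in 3 libraries (where lys-5 and lys-6 drop out), 0.24 with the replicate letters as a block and 0.10 within prefix BB1, and 0.26 to 0.52 with each library left out. The cause was not tested for the latter values. Letter D occurs in DR alone, so with the block DR D does not enter the fitted difference between groups. Whether the letters pair the libraries is not settled. Deviations of AL and DR libraries correlated at 0.20 for A, 0.27 for B and −0.10 for C across genes. Pairs of different letters ran from −0.46 to 0.25. With the replicate block ilys-5 had a log2 fold change of 1.96 and an adjusted p of 0.612 (edgeR), and over all genes 4 were called in place of 2. The sign of ilys-5, lys-1, lys-2, lys-4, lys-5 and lys-6 held wherever they were fitted. For ilys-5 and lys-5, whose groups did not overlap, this was fixed in advance in subsets of the libraries. That of lys-8 turned with the block (0.023), with the rRNA share in the fit (0.066) and with single libraries left out (−0.065 to 0.048). That of lys-7 turned within BB1 (−0.032) and with single libraries left out (−0.052 to 0.33), and that of lys-3 within BB1 (0.35). The fits without robust estimation, without rRNA features and with the rRNA share were chosen after seeing the data. With DESeq2, lys-5, lys-6 and lys-7 had no adjusted p. Calls over all genes were 24 by the exact test, 52 by DESeq2, 0 by limma-voom, 77 with no filter and 725 within BB2, against 2 in the test used above. They were 1 with library sizes in place of TMM, 0 within BB1, 0 without robust estimation, 0 with the rRNA share, and 0 to 2 with each library left out. At these depths genes with under 30 reads in all, such as ilys-2 and ilys-3, gave no usable difference.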
